A study of Mus musculus with 2 samples.

Results

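The genes described here are 40 genes of the cell cycle and of cell proliferation, measured in whole kidneys of Glis2 mutant and wild type mice. They were found by name in the array annotation, with 42 probes of the 20868 distinct probes on the array. All probes together carry 19481 gene names. The list of genes was chosen with earlier results of these data known. Each member had 1 probe, apart from Tyms with 3, and Cdk1 was listed under its older symbol Cdc2a. RNA labelled Glis2 mutant and RNA labelled wild type were hybridised together on 2 two-colour Agilent oligonucleotide arrays. The mutant RNA carried Cy3 on replicate 1 and Cy5 on replicate 2. The array titles call the mutant Glis2 KO, and the sources used here give neither the allele nor the strain. The series description names mice of postnatal day 25 and 60, pools of RNA from 3 kidneys and 2 independent experiments, but not the age behind either array. It is also not stated whether the arrays hold separate RNA pools, so the spread between them may be technical. Median spot signals were 4.06 to 5.18 times the local background over the 4 channels.

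The Glis2 probe gave log2 ratios (mutant over wild type) of 0.32 and 0.16 on the 2 arrays, with an adjusted p of 0.328 in limma. The sources used here do not say whether this probe lies in the altered part of the gene, so it says nothing about the labels, and all directions are those of the RNA as labelled. Transcripts that define kidney were strongly measured in both groups. Umod, made by the loop of Henle, had normalised signals of 66238 and 64799 in mutant kidneys, against 64373 and 65758 in wild type kidneys, close to the ceiling of the scanner.

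Cells enter the cycle when D-type cyclins activate Cdk4 and Cdk6, which release E2F transcription factors from the retinoblastoma protein. E2F then drives the genes of DNA replication, among them cyclin E, the Mcm helicase, ribonucleotide reductase and thymidine kinase. Genes needed later, for chromosome segregation, are switched on in G2 through a CCAAT box and the cell cycle genes homology region (CHR), bound by NF-Y and by the DREAM and B-Myb complexes. Most epithelial cells of the adult kidney rest outside the cycle, whereas tubular cells, fibroblasts and macrophages can divide after injury. The members therefore fall into 5 regulators of G1, 15 genes of S-phase entry and DNA synthesis, and 20 genes of G2 and mitosis.

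Of the 37 members that could be tested, 7 rose in mutant kidneys and 0 fell. Of these, 5 act in G2 and mitosis or mark dividing cells: Cdca3, Ccnb2, Stmn1, Cdc20 and Mki67. The other two are Ccnd2, a G1 cyclin, and Pcna, the sliding clamp of the replication fork. A gene was called at a Benjamini-Hochberg adjusted p under 0.05 in limma, fitted over 18357 genes. The called share was 18.9% of the tested members. Of all genes tested, 5.01% were called, 3.79% higher and 1.21% lower. At an unadjusted p under 0.05, 19 members were higher and 0 lower, against 10.1% and 6.31% of all genes. The median log2 ratio over the tested members was 0.25, against 0.01 over all genes. In whole kidney, a change in the number of dividing cells and a change in RNA per cell cannot be told apart.

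The strength of these calls depended on how signals were processed. On the log ratios that the scanner software had computed, limma called 0 members and 0 genes in all at an adjusted p under 0.05. At an unadjusted p under 0.05 in limma, 14 of the 37 members were higher and 0 lower, against 1518 and 1003 of 18357 genes. An offset of 16 or median centring left 1 member called, Cdca3, where 302 and 235 of all genes were called higher. A trended, robust prior gave 13 members higher and 0 lower, against 1540 and 932 of all genes. The median of the members lay between 0.21 and 0.31 over all alternatives, single arrays included.

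The largest rise was in Cdca3, a trigger of mitotic entry that directs the Cdk1 inhibitor Wee1 to degradation. Its normalised signal was 668 and 533 in mutant kidneys, against 331 and 228 in wild type kidneys (replicates 1 and 2). Both mutant values lay above both wild type values, as for 15.9% of all genes tested. The mean log2 ratio was 1.12 ± 0.11 (moderated SE, n = 2 arrays, limma adjusted p = 0.00183), or 2.17-fold. The wild type net signal of Cdca3 (intensity less local background) on replicate 2 was 203, little above the negative control level of 185 there. That level is the mean plus 2 SD of the net signal of negative control spots. Normalised signals are background-corrected, include an offset of 50 and were dye-corrected by loess. The 2 channels of 1 array are therefore comparable for 1 probe, but signals are not comparable between probes. Arrays were not scaled to each other, so whether groups overlap across arrays also depends on the brightness of each array.

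Ccnb2, a B-type cyclin that activates Cdk1 for mitosis, had signals of 443 and 416 in mutant kidneys, against 328 and 218 in wild type kidneys. The groups did not overlap, but the log2 ratio was 0.44 on replicate 1 and 0.93 on replicate 2 (mean 0.69 ± 0.14, moderated SE, n = 2 arrays, limma adjusted p = 0.0333). On replicate 2 the wild type net signal of Ccnb2 was 195, also little above the negative control level of 185. Cdc20, the activator of the anaphase-promoting complex that starts sister chromatid separation, had 600.4 and 754 in mutant kidneys, against 404 and 517 in wild type kidneys. Its ratios of 0.57 and 0.54 were nearly equal on the 2 arrays (mean 0.56 ± 0.11, moderated SE, n = 2 arrays, limma adjusted p = 0.0255).

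Stmn1, which destabilises microtubules and is abundant in proliferating cells, had signals of 2728 and 2613 in mutant kidneys, against 1778 and 1725 in wild type kidneys. The replicates of each group lay close together, and the mean log2 ratio was 0.61 ± 0.11 (moderated SE, n = 2 arrays, limma adjusted p = 0.0178). Mki67, the Ki-67 antigen used in tissue sections to count cycling cells, had 285 and 347 in mutant kidneys, against 203 and 249 in wild type kidneys. Its groups did not overlap either, and its mean of 0.48 ± 0.11 (moderated SE, n = 2 arrays) passed the threshold narrowly, at an adjusted p of 0.045 in limma. The wild type net signal of Mki67 on replicate 2 was 229, against the negative control level of 185.

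Pcna had signals of 2685 and 2525 in mutant kidneys, against 1662 and 1801 in wild type kidneys, with a mean log2 ratio of 0.59 ± 0.11 (moderated SE, n = 2 arrays, limma adjusted p = 0.0256). Ccnd2 had 750.5 and 789.6 in mutant kidneys, against 439.9 and 529 in wild type kidneys, with a mean of 0.67 ± 0.11 (moderated SE, n = 2 arrays, limma adjusted p = 0.0143). In both genes the wild type values stayed below the mutant values on either array.

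**Figure D1:**
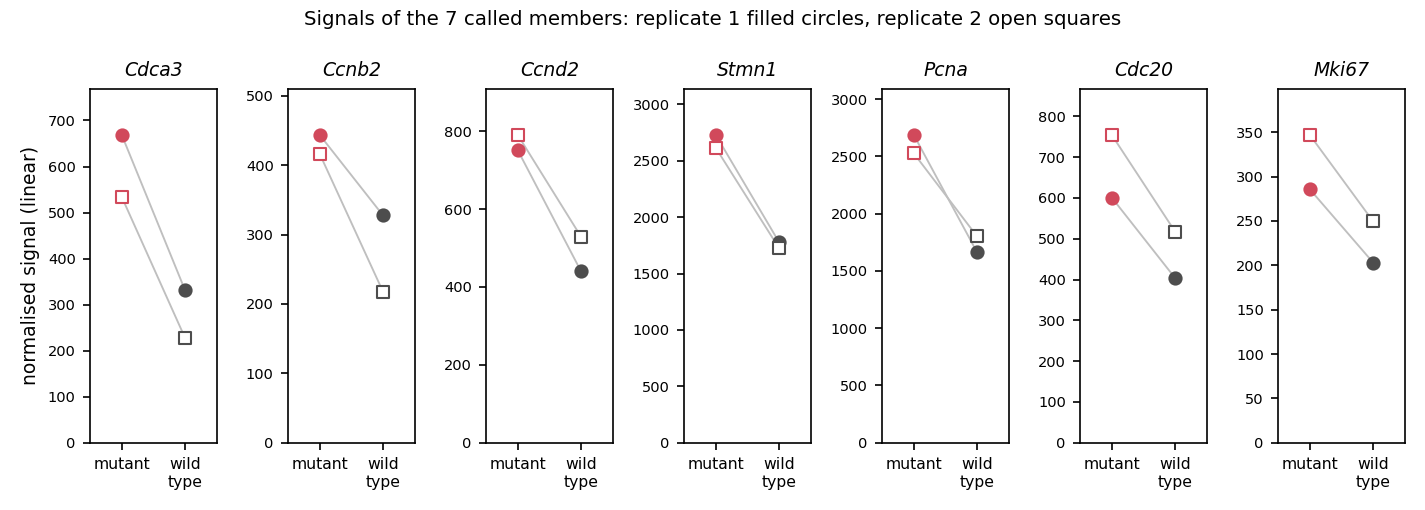
Normalised signal (linear scale from 0, one axis per gene) of the 7 called members in mutant (left, red) and wild type (right, grey) kidneys. Filled circles are replicate 1 and open squares replicate 2, and a line joins the channels of 1 array; the mutant point is the higher end of every line.

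Over 10 settings that allowed a test and could move the calls, the one reported here included, Cdca3 was called in 9. Ccnd2, Pcna, Ccnb2, Cdc20 and Stmn1 were called in 7, and Mki67 in 5. For the called members other than Cdca3, each setting that kept the call left the log2 ratio unchanged. The settings that changed the ratios were the scanner's ratio, an offset of 16 and median centring. Cdca3 kept its call under the offset and the centring, with log2 ratios of 1.23 and 1.08. The other called members kept theirs under none of these settings. By the scanner software's own error model, 6 members had a p under 0.01 on both arrays with a higher mutant signal, against 2.51% of all genes, and these were the called members without Mki67. By size, Cdca3 and Stmn1 were at least 1.5-fold higher on both arrays, against 2.21% of all genes, and 0 members were as much lower, against 0.528%. With the scanner's ratios, which carry no added offset, 6 members were that much higher, against 3.45% of all genes, while 1.18% of all genes were as much lower.

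The promoters shown are those of Cdca3, Ccnb2, Pcna and Cdc20, the called members of largest change in the RefSeq promoter table used here (promoters of Ccnd2 and Stmn1 were not used). They were chosen by size of change, not by the letters they hold. Each runs from 250 bases before to 30 bases after the annotated start, 5′ to 3′ on the gene's strand, on GRCm38.p6. Capitals mark CCAAT boxes, the core of the CHR (TTTGAA) and 2 forms of the E2F site (TTCCCGC, and also TTGGCGC), each on either strand.
Cdca3, chr6:124829926-124830205, plus strand: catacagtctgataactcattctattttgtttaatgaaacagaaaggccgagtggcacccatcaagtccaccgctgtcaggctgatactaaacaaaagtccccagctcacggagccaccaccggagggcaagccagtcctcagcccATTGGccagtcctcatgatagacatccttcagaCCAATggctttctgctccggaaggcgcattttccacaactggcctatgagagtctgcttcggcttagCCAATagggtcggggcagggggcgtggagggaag
Ccnb2, chr9:70421525-70421804, minus strand: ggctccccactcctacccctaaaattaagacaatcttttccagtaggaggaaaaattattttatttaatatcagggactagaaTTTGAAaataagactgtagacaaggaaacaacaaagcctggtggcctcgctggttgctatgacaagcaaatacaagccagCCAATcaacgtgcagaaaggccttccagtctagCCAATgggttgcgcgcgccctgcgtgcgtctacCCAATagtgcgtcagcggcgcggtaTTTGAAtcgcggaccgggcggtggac
Pcna, chr2:132253151-132253430, minus strand: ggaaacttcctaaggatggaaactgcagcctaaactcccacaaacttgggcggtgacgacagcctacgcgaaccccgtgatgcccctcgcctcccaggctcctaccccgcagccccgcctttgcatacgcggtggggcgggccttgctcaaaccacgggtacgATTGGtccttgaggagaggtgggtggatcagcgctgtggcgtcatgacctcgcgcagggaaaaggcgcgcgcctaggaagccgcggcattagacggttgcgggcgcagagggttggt
Cdc20, chr4:118437314-118437593, minus strand: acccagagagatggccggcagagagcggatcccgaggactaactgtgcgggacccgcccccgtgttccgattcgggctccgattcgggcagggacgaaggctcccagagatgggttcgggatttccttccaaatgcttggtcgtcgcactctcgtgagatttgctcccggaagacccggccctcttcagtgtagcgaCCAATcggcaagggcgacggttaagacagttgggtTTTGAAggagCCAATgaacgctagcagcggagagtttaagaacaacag

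The Ccnb2 promoter held 3 CCAAT boxes, at -87, -54 and -21 from the start, and a TTTGAA at 5 bases after it, besides 1 far upstream. Cdc20 held CCAAT at -53 and -8 with TTTGAA between them, at -18. Cdca3 had 3 CCAAT boxes, 1 of them on the opposite strand, and no TTTGAA in this window. Pcna had 1 CCAAT box, on the opposite strand.

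The letters were counted over the 32 members with a promoter window, by phase. Of 16 genes of G2 and mitosis, 8 held TTTGAA (50%), all of them with a CCAAT box in the same promoter. Both together occurred in 1 of 13 S-phase promoters, that of Mcm2, and in 8.33% of 27025 genes. The E2F letters occurred in 7 of 13 S-phase promoters (53.8%), in 3 of 16 of G2 and mitosis and in 7.25% of all genes. CCAAT, with or without TTTGAA, was common in both groups (87.5% and 69.2%, against 39.7% of all genes). So was the GC box GGGCGG (75% and 76.9%, against 37.3%). A gene with several annotated starts was counted once if any of its windows matched. Both TTTGAA and CCAAT stood in 3 of the 5 called members with a promoter (60%), Ccnb2, Cdc20 and Mki67, and in 9 of all 32 (28.1%). The others were Cdk1, Top2a, Cdca8, Ube2c and Mcm2, which were not called, and Cdkn3, which was not tested. No difference in these shares was tested.

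**Figure D2:**
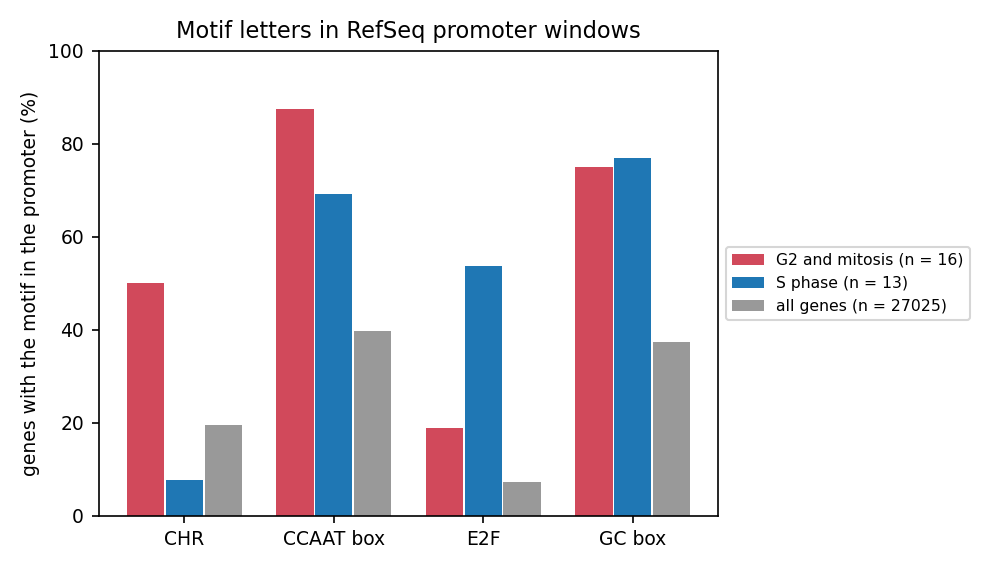
Share of genes (percent) whose RefSeq promoter window holds each motif on either strand, for G2 and mitosis members (red), S-phase members (blue) and all genes (grey). TTTGAA, the CHR core, stands in 50% of G2 and mitosis promoters and the E2F letters in 53.8% of S-phase promoters.

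Of the 18 tested genes of G2 and mitosis, 5 rose (27.8%, against 3.79% of all genes) and 13 were not called. Their median log2 ratio was 0.22 (0.25 and 0.22 on the 2 arrays). The nearest to a call was Mad2l1, a spindle checkpoint protein, with 156 and 138 in mutant kidneys, against 121 and 89.4 in wild type kidneys (log2 ratio 0.49 ± 0.12, moderated SE, n = 2 arrays, limma adjusted p = 0.0572). The groups did not overlap for this gene, but its wild type net signal on replicate 2, where its ratio was larger (0.62, against 0.37), was 63.3. That is below the negative control level of 185 in that channel, the mean plus 2 SD of the net signal of negative control spots. Mad2l1 was called in 4 of the 10 settings. Birc5, or survivin, of the chromosomal passenger complex, had 806 and 938 in mutant kidneys, against 597 and 722 in wild type kidneys (0.40, limma adjusted p = 0.0847). Ccna2, the cyclin of S phase and G2, averaged a log2 ratio of 0.29, the spindle kinase Aurka 0.25, the ubiquitin-conjugating Ube2c of the anaphase-promoting complex 0.18, the mitotic kinase Plk1 0.18 and the passenger subunit Cdca8 0.15. Each of these 5 was higher in mutant kidneys on both arrays without passing the test.

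The central mitotic kinase and its main cyclin gave ratios near 0. Cdk1 had signals of 155 and 175 in mutant kidneys, against 134 and 177 in wild type kidneys, and Ccnb1 had 170 and 176 in mutant kidneys, against 177 and 169.5 in wild type kidneys. Their log2 ratios averaged 0.10 and -0.00, and the groups overlapped in both genes. Their wild type net signals on replicate 2, 162.5 and 154, were also below the negative control level there.

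In mitosis, 4 further genes gave opposite signs on the 2 arrays, above 0 on replicate 1 and below 0 on replicate 2. The checkpoint kinase-like protein Bub1b had ratios of 0.21 and -0.54, the DNA topoisomerase Top2a 0.29 and -0.44, the Cdk1-activating phosphatase Cdc25c 0.16 and -0.38, and the checkpoint kinase Bub1 0.16 and -0.31. Negative control spots were brighter on replicate 2, most so in Cy3, which there held the wild type RNA. Top2a and Bub1 had net wild type signals of 149.6 and 83.6 there, below the control level of 185. Of the 8 tested members below that level in that channel, 4 had opposite signs on the 2 arrays. Of the 29 members above the control level in all 4 channels 4 also had, Bub1b and Cdc25c among them. Dye orientation and slide cannot be told apart with these 2 arrays.

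Of the 14 tested S-phase genes, Pcna rose (7.14%, against 3.79% of all genes) and 13 were not called. Their median log2 ratio was 0.28 (0.16 and 0.38 on the 2 arrays). All 6 subunits of the Mcm2 to Mcm7 helicase, which unwinds DNA at the replication fork, were higher in mutant kidneys on both arrays, as were 31.9% of all genes. Of these 6 subunits, 0 passed the test (4 at an unadjusted p under 0.05 in limma, against 10.1% of all genes higher). Their mean log2 ratios lay between 0.16 for Mcm5 and 0.39 for Mcm7. Mcm7 had signals of 515 and 571 in mutant kidneys, against 393 and 439 in wild type kidneys, which did not overlap (limma adjusted p = 0.1). Mcm2, with 210 and 251 in mutant kidneys, against 191 and 165 in wild type kidneys, rested mostly on replicate 2, as its log2 ratios were 0.14 and 0.61. Its wild type net signal on replicate 2, 146, was below the negative control level of 185.

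Among the enzymes that supply nucleotides, Rrm2, the regulated subunit of ribonucleotide reductase, had signals of 132 and 185 in mutant kidneys, against 111 and 101 in wild type kidneys. Its log2 ratio was 0.25 on replicate 1 and 0.88 on replicate 2 (mean 0.57 ± 0.16, moderated SE, n = 2 arrays, limma adjusted p = 0.0989). The wild type net signal of Rrm2 on replicate 2, at 78.3, was also below the negative control level. The other subunit, Rrm1, averaged 0.27, and thymidine kinase, Tk1, 0.33 (0.25 and 0.41). Thymidylate synthase, Tyms, showed no such shift on any of its 3 probes, with means of -0.02, -0.01 and 0.10. Of the kinase that starts S phase and its cyclins, Ccne1 averaged 0.23, Cdk2 0.12 and Ccne2 -0.09, and 0 of these 3 passed the test (0 at an unadjusted p under 0.05 in limma). The wild type net signal of Ccne2 on replicate 2, 130, was below the negative control level too.

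The 2 phases cannot be ranked from these data. The S-phase median was below that of G2 and mitosis on replicate 1 (0.16 against 0.25) and above it on replicate 2 (0.38 against 0.22). The called share was 5 of 18 for G2 and mitosis and 1 of 14, Pcna, for S phase. For comparison, 3.79% of all genes were called higher. The difference between the 2 phases was not tested.

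Of the 5 G1 genes, Ccnd2 rose (20%, against 3.79% of all genes) and 4 were not called. The D-type cyclins gave unlike values, and the difference between them was not tested. Ccnd1 had signals of 6525 and 7131 in mutant kidneys, against 6873 and 7712 in wild type kidneys, and Ccnd3 had 733 and 685 in mutant kidneys, against 698 and 809 in wild type kidneys. The groups overlapped in both genes, although Ccnd1 was lower on both arrays (log2 ratios -0.07 and -0.11). The mean log2 ratios of Ccnd1 and Ccnd3 were -0.09 and -0.08, where Ccnd2 had 0.67. Their kinase Cdk4 had 355 and 321 in mutant kidneys, against 298 and 252 in wild type kidneys (0.30, limma adjusted p = 0.211), and Cdkn2c, the p18 inhibitor of Cdk4 and Cdk6, averaged 0.11.

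**Figure D3:**
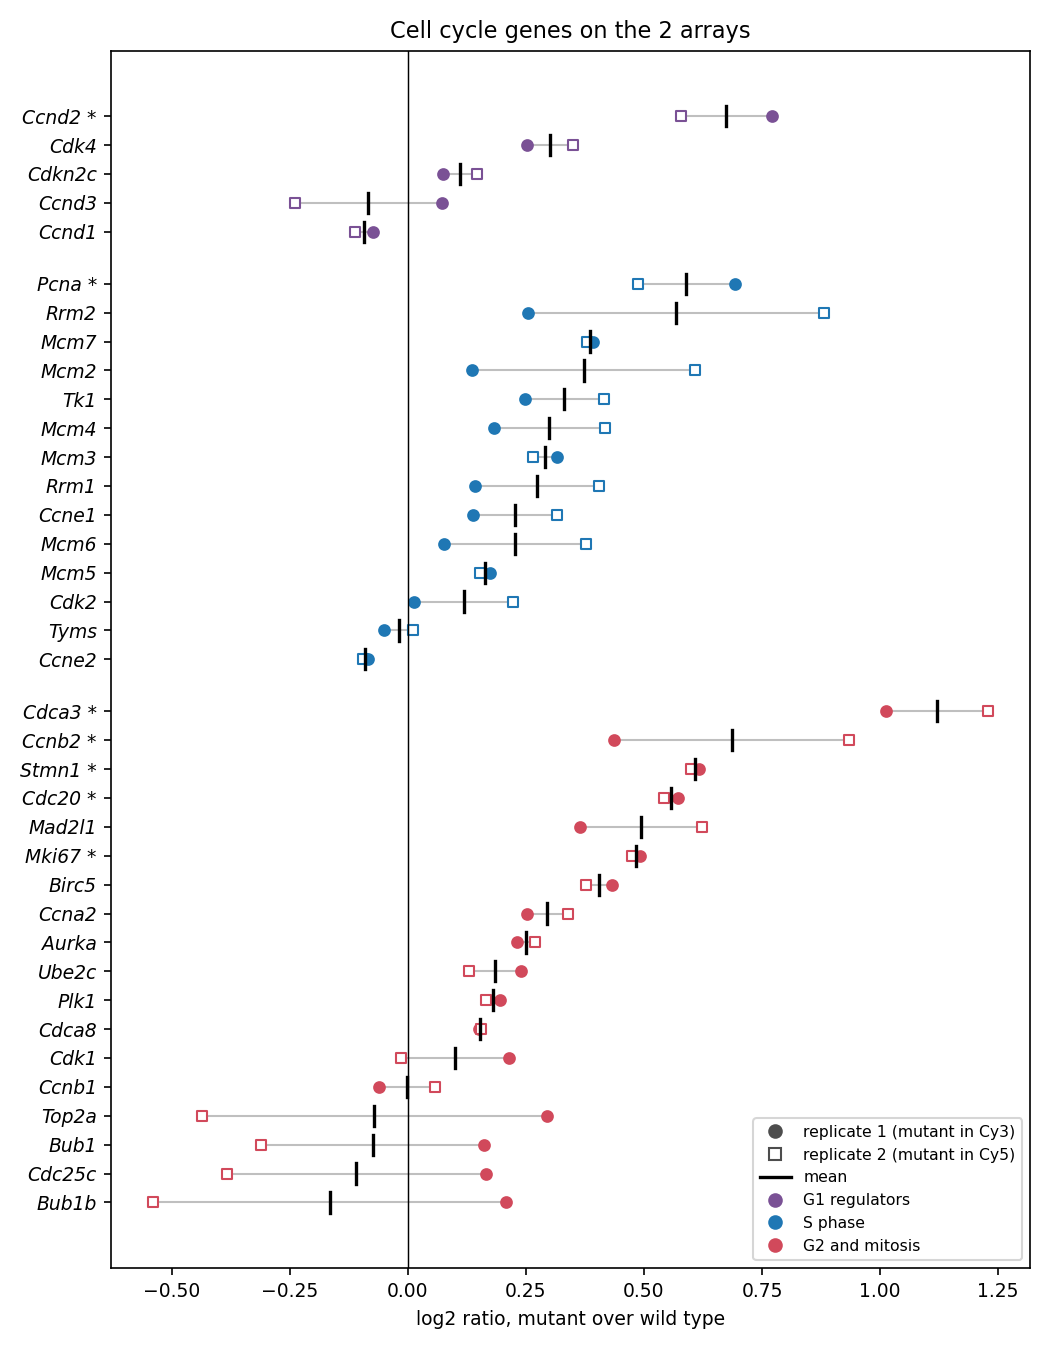
Log2 ratio (mutant over wild type) of the 37 tested members on replicate 1 (filled circles) and replicate 2 (open squares), with the mean as a black bar and an asterisk for the 7 called genes. Cdca3 stands farthest right at a mean of 1.12, and Bub1b, Cdc25c, Bub1 and Top2a span 0.

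Aurkb, Cdc6 and Cdkn3 did not pass the filter on dim spots, which asked for signal well above background in 1 genotype on both arrays. Aurkb, the kinase of the passenger complex, was well above background only in the mutant channel of replicate 2, with signals of 70.5 and 78.8 in mutant kidneys, against 61.1 and 60.2 in wild type kidneys, too dim for a fold change. Cdc6, which loads the Mcm helicase, was above background only in the mutant channel of replicate 1. Cdkn3, a phosphatase of Cdk proteins, was so in both channels of replicate 2 alone, where its log2 ratio was -0.60. Its net signals there were 39.8 (mutant) and 126 (wild type), below the negative control levels of 62.6 and 185 in these channels. Cdkn3 was thus also too dim for a fold change.

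By direction alone, 27 of the 37 tested members were higher in mutant kidneys on both arrays, against 31.9% of all genes. Lower on both were 2 members, Ccnd1 and Ccne2, against 28.9% of all genes, and 8 members had opposite signs, against 39.3%. For 22 members both mutant signals lay above both wild type signals, against 15.9% of all genes, and for 0 members below them, against 11.2%.

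**Figure D4:**
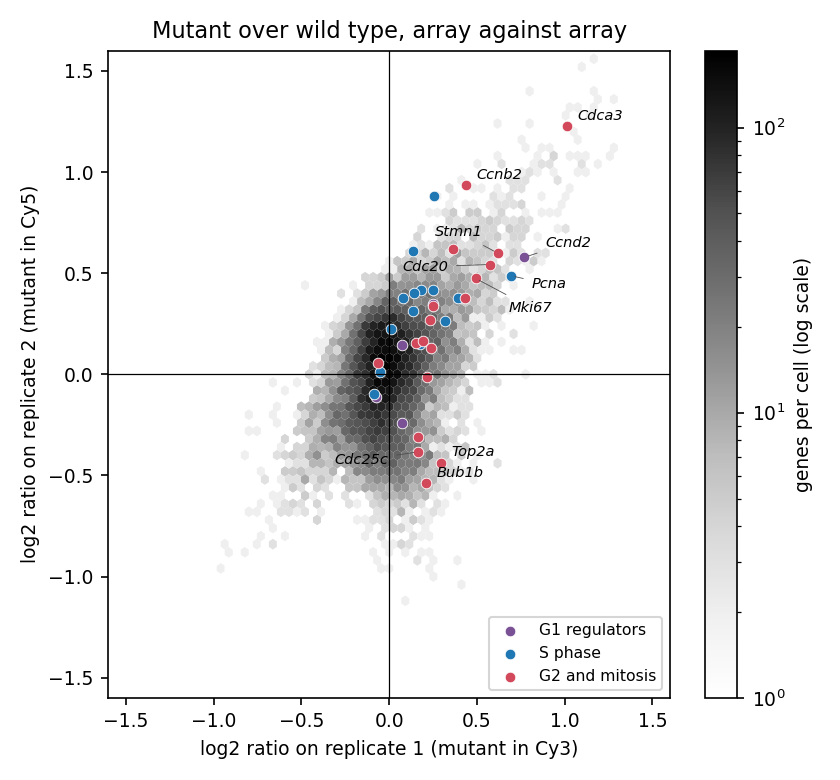
Log2 ratio (mutant over wild type) on replicate 1 (x axis) and replicate 2 (y axis) for the genes tested (grey, density on a log scale, genes beyond 1.6 on either axis not drawn) and the tested members (coloured by group). Most members lie in the upper right, and Bub1b, Top2a and Cdc25c lie below 0 on replicate 2.

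Other genes of the same pathways were examined as 4 further lists. Of 35 tested genes of replication licensing and the fork, 2 were called higher and 0 lower, a share of 5.71% against 3.79% of all genes. They were Chaf1b, of the chromatin assembly factor that loads histones behind the fork (0.65 ± 0.11, moderated SE, n = 2 arrays, limma adjusted p = 0.0143), and Prim2, of the primase (0.62 ± 0.12, limma adjusted p = 0.0305). The list median was 0.25, and 29 of the 35 genes were higher in mutant kidneys on both arrays, against 31.9% of all genes. Of 52 tested genes of the spindle, kinetochore and cytokinesis, Cdca5, or sororin, which holds sister chromatids together, was called higher (0.70 ± 0.15, moderated SE, n = 2 arrays, limma adjusted p = 0.0402) and 0 were lower. That share was 1.92%, against 3.79% of all genes, and the list median was 0.14. At an unadjusted p under 0.05 in limma 14 were higher and 1 lower, against 10.1% and 6.31% of all genes. Higher on both arrays were 30 of the 52, against 31.9% of all genes.

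Among regulators above these genes no call was made. At an unadjusted p under 0.05 in limma, 10.1% of all genes were higher and 6.31% lower. Of 18 tested genes of the E2F and retinoblastoma families and their partners, 0 were called by limma (0 higher and 2 lower at an unadjusted p under 0.05), with a median of 0.00. The most changed by value were Tfdp2, a dimer partner of E2F (-0.52, limma adjusted p = 0.093), and Lin52 of the DREAM complex (-0.33). Of 12 Cdk inhibitors and other kinases of the cycle, 0 were called by limma (4 higher and 0 lower at an unadjusted p under 0.05), with a median of 0.15. The inhibitor Cdkn1c, or p57, had signals of 887 and 1022 in mutant kidneys, against 684 and 659 in wild type kidneys (0.50 ± 0.12, moderated SE, n = 2 arrays, limma adjusted p = 0.0539), and the p53 target Ccng1 averaged 0.43.

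**Figure D5:**
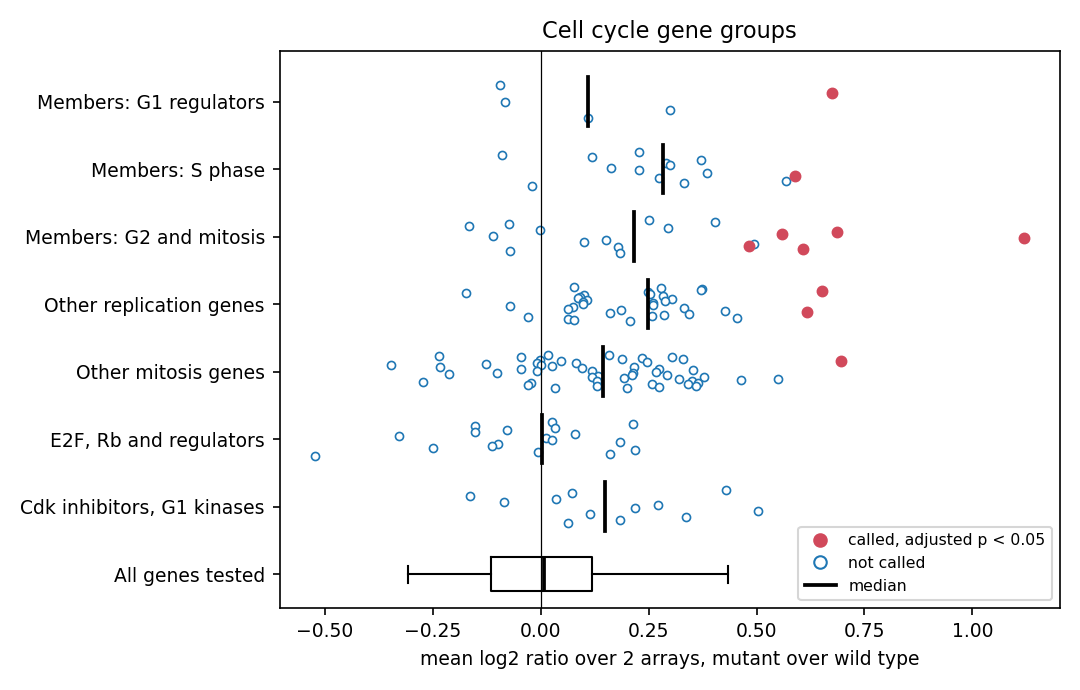
Mean log2 ratio over the 2 arrays (mutant over wild type) of each tested gene of the 3 member groups and the 4 further lists, with medians as black bars; filled red points passed the test. The box of all genes spans the quartiles, with whiskers at the 5th and 95th percentiles. Member and replication lists have medians between 0.11 and 0.28, and the E2F list 0.00.

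Markers of macrophages, fibroblasts and adipocytes were mostly called higher in mutant kidneys, and erythroid markers were not. Of all genes tested, 3.79% were called higher and 1.21% lower. Of 14 macrophage markers 11 rose and 0 fell, and their summed signal was 16067 to 17632 in mutant kidneys, against 6621 to 6869 in wild type kidneys. C1qa, a complement component made by macrophages, had a log2 ratio of 1.86. Of 11 tested fibroblast and stroma markers 9 rose and 0 fell, with sums of 20325 to 22571 in mutant kidneys, against 9971 to 10450 in wild type kidneys. Of 10 adipocyte markers 7 rose and Lpl fell, with sums of 40302 to 41287 in mutant kidneys, against 18300 to 20415 in wild type kidneys. Of 15 tested lymphocyte markers 2 rose and 0 fell, with sums of 4414 to 4561 in mutant kidneys, against 3970 to 4102 in wild type kidneys. Their median log2 ratio was 0.36. At an unadjusted p under 0.05 in limma 8 were higher and 1 lower, against 10.1% and 6.31% of all genes.

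Of 5 tested erythroid markers 3 fell and 0 rose, where 1.21% of all genes were called lower and 3.79% higher. Their summed signals were 40556 to 56148 in mutant kidneys, against 78613 to 83022 in wild type kidneys. Of 12 proximal tubule markers the phosphate transporter gene Slc34a1 fell (log2 ratio -0.61) and 0 rose. The median of this list was -0.33, with 10 of 12 lower on both arrays, against 28.9% of all genes. At an unadjusted p under 0.05 in limma 8 were lower and 0 higher, against 6.31% and 10.1% of all genes. Kap, Miox, Pck1 and Fbp1 were saturated in at least 1 channel, and the other 8 summed to 71119 to 81877 in mutant kidneys, against 96028 to 108199 in wild type kidneys. The 37 tested members had summed signals of 26929 to 27878 in mutant kidneys, against 22982 to 24030 in wild type kidneys. Such sums, here and for the markers, weigh bright probes most. Ccnd1 alone, lower in mutant kidneys on both arrays, had signals of 6525 and 7131 there, against 6873 and 7712 in wild type kidneys. Among the defining markers Gzma of lymphocytes and Dcn of fibroblasts did not pass the filter on dim or non-uniform spots. The part of these cell types in the changes of the members was not tested.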

How the data were processed

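Kidney RNA labelled Glis2 mutant and wild type was compared on 2 dye-swapped Agilent arrays. Per the file headers, Agilent Feature Extraction 8.1.1.1 wrote each spot's intensity with its local background, flags, a log10 ratio of Cy5 over Cy3 after its own background subtraction and dye normalization, and a p-value for each log ratio from its own error model. The authors' deposited value table holds log10 ratios equal to the scanner's with the sign turned (Cy3 over Cy5, largest difference 0).

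The tests ran in limma 3.58.1 under R 4.3.3. Deposited mean intensities had the median local background removed by normexp with an added offset of 50, then within-array loess with no weight on control spots. Ratios were turned to mutant over wild type. The 1075 control spots and 88 non-uniform spots were left out. Spots were kept if well above background on both arrays in at least 1 genotype. Repeat spots were averaged by probe, with the brightest probe taken per gene. For 18357 genes, limma tested whether the mean ratio (log2) differed from 0. There was 1 residual degree of freedom, and 6.58 came from the prior. SEs are moderated and borrow the spread of all genes. The offset makes log2 ratios understate the change of dim spots. The number of arrays limits the precision.

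Members were found by gene name or older symbol. Other probes were named through accession or symbol, with RefSeq genes of GRCm38.p6, whose promoter windows were found for 32 of 40 members. All members could be named; of further lists, up to 4 called genes of largest change (if none was called, 2 by size) and 2 bright markers were named, and Slc34a1, Gzma and Dcn were named after their values were seen. The members and lists were chosen with earlier results of these data known. Steps were tested on simulated data. Alternatives covered the scanner's ratio, offset, normalization, filters, probe choice, prior and single arrays.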

Additional observations from a re-analysis of the deposited data

How the results depend on the processing

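The count of members called higher was 7. It became 0 with the scanner's log ratio, 1 under an offset of 16, 1 under median centring, 13 under a trended, robust prior and 19 at an unadjusted p under 0.05, while 0 were called lower in each. All genes called higher and lower were 302 and 56 under an offset of 16, 235 and 48 under median centring, 1540 and 932 under the trended, robust prior, and 0 and 0 with the scanner's log ratio (1518 higher and 1003 lower at an unadjusted p under 0.05 in limma). Members at least 1.5-fold higher on both arrays numbered 2, but 6 with the scanner's log ratio, 1 at 2-fold, and between 4 and 6 on 1 array alone, where only 1 array need pass. The median of G2 and mitosis genes, 0.22, was 0.28 with the scanner's log ratio, 0.25 under an offset of 16, 0.18 under median centring, 0.27 when both channels needed signal above background or with a floor from negative controls (which dropped Bub1 and Top2a, and was chosen after seeing the data), and between 0.22 and 0.25 on single arrays. Among the tested members, under alternatives that kept both arrays, Top2a (0.044 with the scanner's log ratio) and Tyms (0.024 with probes averaged) changed sign, and neither was called. The causes were not tested. The test on log ratios already pairs the genotypes within each array, and no further pairing was possible as the arrays form 1 group. Aquantile scaling leaves log ratios, and so all calls, as they are by construction. With 1 array limma gives no test. Dim members are limited by signal over background.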
